A study of Homo sapiens with 26 samples.

Results

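Interferon-stimulated genes (ISGs) are the genes that cells switch on when an interferon binds its receptor. The values of 40 ISGs were followed here through 26 single cell-derived cell lines (SCDCLs) of pancreatic ductal adenocarcinoma, out of 41078 genes in the deposited table. The 40 were chosen by name, as well-known members of the response, and each symbol was found in the table through its Ensembl identifier. Each SCDCL is a clone grown from 1 cell of BxPC3 or Panc-1, which are established human lines, and each has 1 mRNA library and no replicate library. The labels place 12 libraries in BxPC3 and 14 in Panc-1 (written Panc1 in the labels) and name gemcitabine, a nucleoside analogue used as chemotherapy, as the treatment of all of them, whereas the methods describe this drug only in viability assays and none for the cultures that gave RNA. The libraries are numbered here from 1 to 26 as in the labels. Response to gemcitabine is not in the labels, so resistant and sensitive clones were not compared.

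Type I and type III interferons act through the kinases JAK1 and TYK2, whose signal is carried to the nucleus by a complex that includes IRF9 and binds the interferon-stimulated response element (ISRE) in the promoters of ISGs. Genes that answer type II interferon carry the gamma-activated site (GAS). Many of the proteins made in this way bind or cut viral RNA, block viral entry, or tag proteins with ISG15, and others sense foreign nucleic acid or dampen the signal. Tumor cells of several origins can hold such a programme switched on without infection.

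The promoter sequences show what the genes share beyond their names. In the 250 bases before each RefSeq transcription start (GRCh38.p14), the ISRE core GAAANNGAAA, read on either strand (TTTCNNTTTC), was found in 23 of the 31 members that the promoter table holds (74.2%) and in 3.71% of all 27305 genes. The GAS letters TTCNNNGAA, which read alike on both strands, were found in 11 of 31 members (35.5%) and in 8.09% of all genes. The core could overlap itself and each overlapping copy was counted. Stretches around the core nearest to a start are printed for 8 members that differed widely between clones, with the letters of the core in capitals and each sequence 5′ to 3′ on the strand of the gene.
ISG15, chr1:1013375-1013414, plus strand: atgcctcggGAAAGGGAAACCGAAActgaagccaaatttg
IFI6, chr1:27672261-27672300, minus strand: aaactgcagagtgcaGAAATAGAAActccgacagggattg
IFI27, chr14:94110626-94110665, plus strand: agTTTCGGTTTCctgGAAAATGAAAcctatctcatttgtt
IFI44, chr1:78649756-78649795, plus strand: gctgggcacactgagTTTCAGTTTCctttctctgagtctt
IFI44L, chr1:78620360-78620399, plus strand: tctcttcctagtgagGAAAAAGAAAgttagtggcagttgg
IFIT1, chr10:89392505-89392544, plus strand: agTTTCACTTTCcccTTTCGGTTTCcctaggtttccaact
GBP1, chr1:89065311-89065350, minus strand: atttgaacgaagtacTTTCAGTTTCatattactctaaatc
BST2, chr19:17405730-17405769, minus strand: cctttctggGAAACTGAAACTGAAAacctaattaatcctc
ISG15 and BST2 carry overlapping copies, and IFI27 and IFIT1 carry separate copies within the 40 bases shown. The members not in the promoter table are GBP2, USP18, OASL, OAS2, IFIT2, IRF7, TRIM22, IFITM2 and MX2. A match describes the letters and does not show that a factor binds there.

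SMAD4, a carrier of TGF-beta signals that BxPC3 lacks and Panc-1 has, divided the libraries against their labels. It was at or below 0.0440 TPM (a level scaled to transcript length and to the library) in 12 libraries, 7 of them with the Panc-1 label and 5 with the BxPC3 label, and at 28.1 to 52.2 TPM in the other 14, of which 7 carry each label. These are called the SMAD4-low and SMAD4-expressing clones, and each library is named by its label. The set sizes, 12 and 14, equal the numbers of BxPC3 and Panc-1 clones in the paper. Whether the sets are the lines BxPC3 and Panc-1 was not tested. A difference that goes with SMAD4 cannot be told apart here from a difference between lines. The epithelial genes CDH1 (90.8 to 198 TPM) and EPCAM (239 to 424 TPM) were high in every SMAD4-low clone, whereas VIM, the filament of mesenchymal cells, was at 3047 to 4526 TPM in the SMAD4-expressing clones and at most 73.2 TPM in the others. The lists did not move as wholes. The epithelial keratins KRT8 (medians 461 and 2053 TPM) and KRT18 (521 and 1598 TPM) had the higher median in the SMAD4-expressing clones, and the mesenchymal gene FN1 (32.6 and 1.33 TPM) was higher in the SMAD4-low clones without overlap. The leukocyte marker PTPRC stayed at or below 0.535 TPM in all 26 libraries. Library totals ran from 27035724 to 34945608 estimated counts. Because the sets were made from measured values, and differ in many genes, they are compared by description and without a test.

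The ISGs were, as a group, higher and far more variable in the SMAD4-low clones. Of the 40 members, 39 had the higher median there, with a median log2 ratio of 2.68 against -0.0095 over 15246 genes that reached a median of 1 TPM in either set. In 16 members the lowest SMAD4-low clone lay above the highest SMAD4-expressing clone, and 15.2% of all genes did the same. One member, IRF7, was separated in the opposite direction, as were 15.8% of all genes, and 23 members overlapped. The ISRE core was in 10 of the 13 separated members that the promoter table holds and in 13 of the 18 that overlapped. A median of 1 TPM was reached by 39 members in the SMAD4-low clones and by 25 in the SMAD4-expressing clones. Summed over all members, the level ran from 1144 to 12030 TPM in the former and from 989 to 1879 TPM in the latter. In RNA from whole cultures, fewer cells that express a gene and less RNA per cell cannot be told apart.

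**Figure D1:**
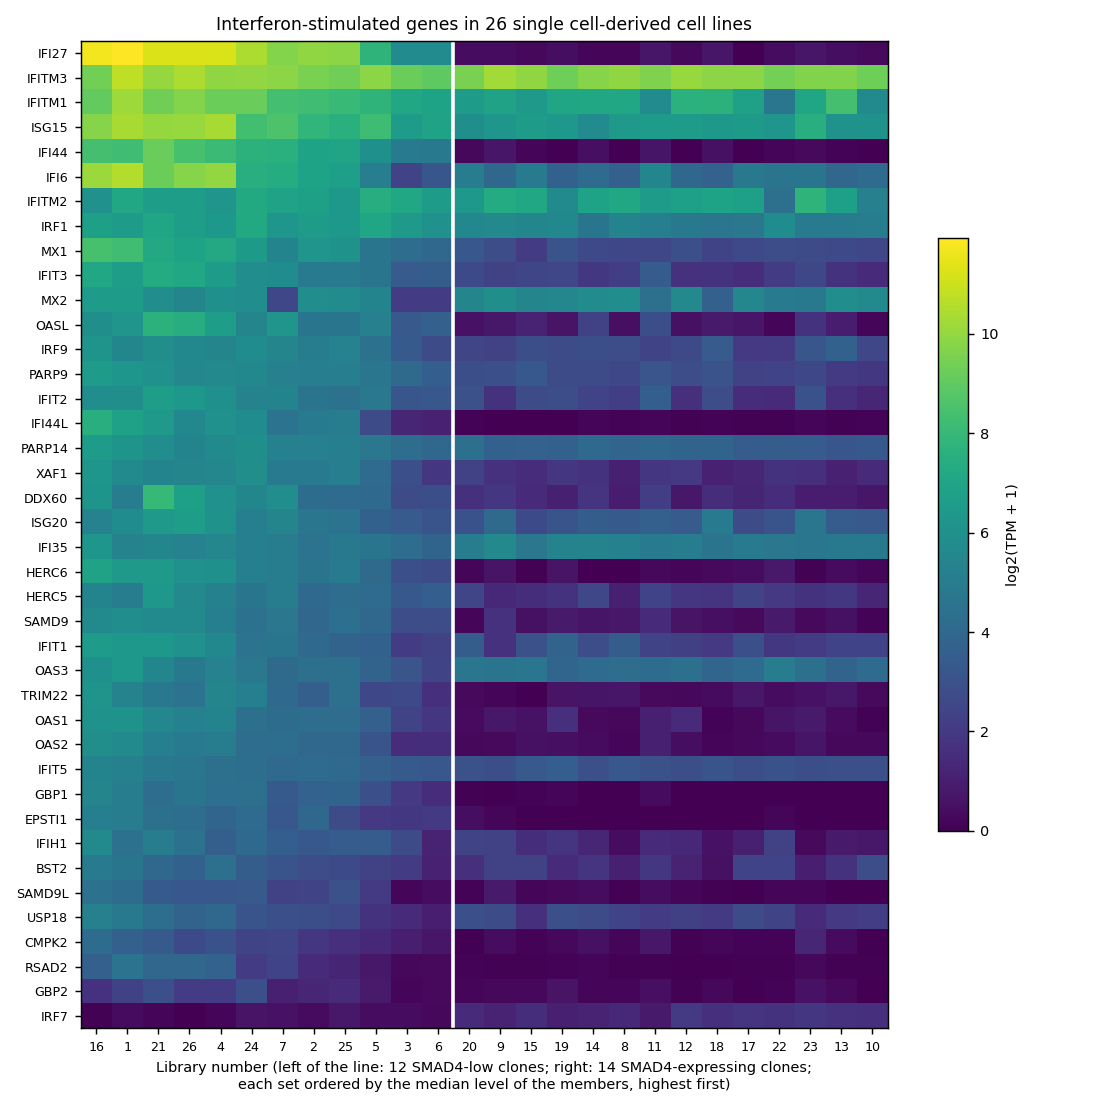
Colour gives log2(TPM + 1) of the 40 members (rows, by level) in each of 26 libraries (columns, by number). The 12 SMAD4-low clones stand left of the white line and the 14 SMAD4-expressing clones right of it, each set ordered by the median level of the members. From library 16 to library 6 most rows fade together, whereas rows on the right show no shared gradient.

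The IFI genes held the widest differences. IFI27 (ENSG00000165949, chromosome 14, 94104836 to 94116695), a small hydrophobic protein of mitochondria and nuclear envelope, had a lowest value of 52.8 TPM, a median of 1182 TPM and a highest value of 3875 TPM in the SMAD4-low clones. Its values in the SMAD4-expressing clones were 0.0093, 0.309 and 0.663 TPM, so that the lowest clone of the first set was 79.6 times the highest clone of the second. By median, IFI27 was thereby the most abundant member in 1 set and near the limit of detection in the other, where it had at most 7.30 estimated counts. IFI44, a cytoplasmic protein with antiviral activity, ran from 27.4 through a median of 195 to 577 TPM in the SMAD4-low clones, and was at most 0.651 TPM in the others, 9 of which had under 3 estimated counts. Its neighbour IFI44L (chromosome 1, 78619902 to 78646145) ran from 1.14 through 39.3 to 175 TPM, against at most 0.134 TPM. Neither gene overlapped between the sets.
IFI6 (ENSG00000126709, chromosome 1, 27666064 to 27672212), which protects mitochondria from cell death signals, behaved differently. Its lowest, median and highest values were 4.50, 170 and 1517 TPM in the SMAD4-low clones, a 338-fold range, and 11.5, 17.1 and 42.8 TPM in the SMAD4-expressing clones. The SMAD4-low clones thus lay on both sides of the others, with 9 of 12 above all SMAD4-expressing clones and 2, libraries 3 and 6, below all of them. IFI35, a partner of NMI in cytokine signals, overlapped, at 13.2 to 75.7 TPM against 22.7 to 48.3 TPM, with medians of 33.6 and 30.1 TPM. Of the SMAD4-low clones, 1 was above and 3 were below all SMAD4-expressing clones for IFI35.

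ISG15 (ENSG00000187608, chromosome 1, 1001138 to 1014540), a ubiquitin-like protein that is both secreted and joined to other proteins, was at 94.2, 355 and 1316 TPM in the lowest, median and highest SMAD4-low clone. Its values were 53.2, 81.4 and 174 TPM in the SMAD4-expressing clones, and 10 of 12 SMAD4-low clones were above all of them. HERC5, the ligase that attaches ISG15, was at 8.78 to 80.7 TPM against 1.10 to 4.74 TPM and did not overlap. HERC6, a related ligase, ran from 5.75 through 32.7 to 116 TPM in the SMAD4-low clones and was at most 0.746 TPM in the others. USP18, which removes ISG15 and restrains the type I receptor, overlapped, with medians of 7.10 and 4.01 TPM. The carrier and both ligases therefore differed more between the sets than the enzyme that removes the tag. ISG20, an exonuclease that degrades RNA, also overlapped, with medians of 36.4 and 9.41 TPM.

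The IFIT genes, a cluster on chromosome 10 whose products hold back foreign RNA from translation, were expressed in every clone of both sets. IFIT1 was at 3.30, 23.2 and 94.5 TPM in the lowest, median and highest SMAD4-low clone and at 2.25, 4.38 and 12.97 TPM in the SMAD4-expressing clones. IFIT3, which stabilizes IFIT1, had values of 9.62, 55.7 and 159 TPM against 1.68, 3.52 and 10.2 TPM. IFIT2 had medians of 40.1 and 4.02 TPM and IFIT5 medians of 17.8 and 6.71 TPM. All 4 overlapped between the sets, and library 3 lay within the range of the SMAD4-expressing clones for each. IFIT3 came nearest to separation, with 11 of 12 SMAD4-low clones above all the others.

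The OAS genes make 2′-5′ oligoadenylates, which activate RNase L. OAS1 was at 2.72, 19.1 and 69.4 TPM in the SMAD4-low clones and at 0.0439, 0.377 and 2.01 TPM in the SMAD4-expressing clones. OAS2 (1.89 to 58.8 TPM) and OASL (9.11 to 200.4 TPM), which lacks the enzyme activity and enhances RIG-I, were likewise separated from the SMAD4-expressing clones, with highest values there of 1.06 and 6.21 TPM. OAS3 stood apart within its family, because it was expressed at 13.1, 17.8 and 31.9 TPM in the SMAD4-expressing clones and at 4.41, 23.1 and 81.6 TPM in the SMAD4-low clones. Library 6 had the lowest OAS3 of all 26 clones.
Among the Mx GTPases, which trap viral nucleocapsids, MX1 (ENSG00000157601, chromosome 21, 41420020 to 41470071) was separated, at 15.1, 81.2 and 353 TPM against 3.22, 5.26 and 8.40 TPM. MX2, beside it on the chromosome, was not. It was at 3.32, 54.2 and 96.0 TPM in the SMAD4-low clones and at 11.5, 45.1 and 59.8 TPM in the SMAD4-expressing clones, so both sets expressed it at a like median. Libraries 3, 6 and 7 held 3.33, 3.32 and 4.76 TPM of MX2, below all other clones.

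**Figure D2:**
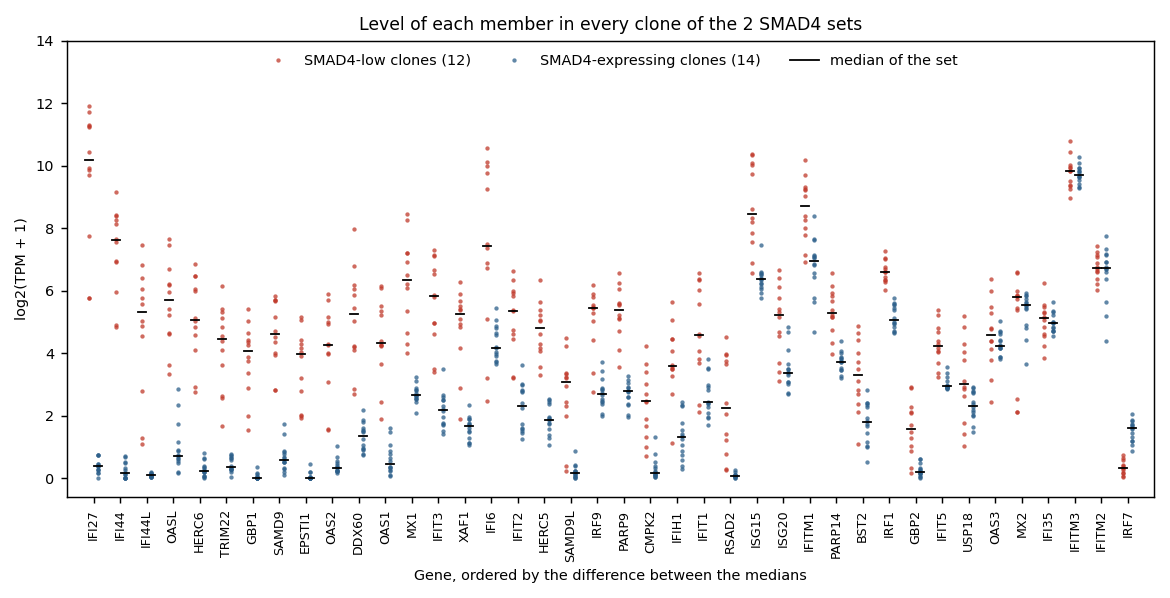
Each point is the log2(TPM + 1) of a gene in 1 clone, red for 12 SMAD4-low and blue for 14 SMAD4-expressing clones, with a bar at the median of the set. Genes are ordered by the difference between the medians, from IFI27 (log2 ratio 9.82) to IRF7 (-1.26), and most red columns span a wider range than the blue ones beside them.

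The transcription factors among the members gave 3 different pictures. IRF1 (ENSG00000125347, chromosome 5, 132440440 to 132508719), an early target of interferon signals, was at 64.3, 95.8 and 153 TPM in the SMAD4-low clones and at 23.9, 32.4 and 53.9 TPM in the SMAD4-expressing clones, separate, with an SD of log2(TPM + 1) of 0.360 in the SMAD4-low clones, the smallest of the 39 expressed members there, and 0.391 in the others. Both SDs were above the medians over all genes, 0.297 and 0.286. IRF9, the DNA-binding subunit of the complex that reads the ISRE, was at 5.83, 42.4 and 72.1 TPM against 2.99, 5.40 and 12.2 TPM, and 10 of 12 SMAD4-low clones were above all the others. IRF7 (ENSG00000185507, chromosome 11, 612553 to 615983), the factor that amplifies type I interferon genes, was the 1 member lower in the SMAD4-low clones, at 0.0177, 0.262 and 0.681 TPM against 0.842, 2.02 and 3.13 TPM. Its level was low in both, with 11.7 to 43.2 estimated counts in the SMAD4-expressing clones.

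The antiviral proteins of membranes and cytoplasm ranged from no difference to full separation. IFITM3, which blocks fusion of viruses in endosomes, was abundant in all clones, with medians of 911 and 841 TPM and overlapping ranges. IFITM2 had medians of 105.5 and 104.8 TPM. IFITM1, which acts at the cell surface, was at 119, 429 and 1172 TPM in the SMAD4-low clones and at 24.5, 123 and 337 TPM in the SMAD4-expressing clones. These 3 genes lie next to each other on chromosome 11 and have similar coding sequences. The SD of their resampled estimates within a library, as the median over the libraries of a set, was at most 0.0471 on the log2 scale. Single libraries can lie above this median.
GBP1 (ENSG00000117228, chromosome 1, 89051882 to 89065360), a guanylate-binding protein best known as a target of type II interferon, was at 1.89, 15.8 and 41.9 TPM in the SMAD4-low clones and at most 0.277 TPM in the others, 12 of which had under 3 estimated counts. EPSTI1, a gene of epithelial-stromal interaction, had values of 2.77, 14.8 and 34.6 TPM against at most 0.360 TPM, and TRIM22, a ubiquitin ligase, had 2.17, 21.1 and 70.0 TPM against at most 0.726 TPM. SAMD9, a restriction factor of poxviruses, was at 6.01 to 56.3 TPM against 0.0768 to 2.30 TPM. All of these were separated. SAMD9L (medians 7.54 and 0.112 TPM), GBP2 (1.99 and 0.157 TPM), CMPK2, a mitochondrial nucleotide kinase (4.52 and 0.129 TPM), and RSAD2, known as viperin (3.74 and 0.0555 TPM), were also near 0 in the SMAD4-expressing clones. They overlapped, and libraries 3 and 6 were below 1 TPM for all 4.

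Further members act on RNA or on signaling. DDX60, a helicase that assists RIG-I, was at 5.50, 37.3 and 249 TPM in the SMAD4-low clones and at 0.671, 1.57 and 3.49 TPM in the SMAD4-expressing clones, without overlap. IFIH1, which encodes the RNA sensor MDA5, had medians of 11.1 and 1.48 TPM and overlapped. The resampled estimates of IFIH1 within a library had an SD of 0.570 on the log2 scale, as the median over the SMAD4-low clones. By this median its values carry more assignment error than those of any other member. PARP9 and PARP14, ADP-ribosyltransferases near each other on chromosome 3 that bear on interferon signals, had medians of 40.7 and 38.5 TPM in the SMAD4-low clones and 5.84 and 12.3 TPM in the SMAD4-expressing clones, and PARP9 alone of the pair was separated. XAF1, which antagonizes an inhibitor of apoptosis, had medians of 37.1 and 2.16 TPM with 11 of 12 SMAD4-low clones above all the others. BST2, or tetherin, which holds virions on the cell surface, had medians of 9.01 and 2.44 TPM and overlapped.

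Variation among the SMAD4-low clones was the main feature of the ISGs. The SD of log2(TPM + 1) over these 12 clones had a median of 1.18 over 39 members (jackknife SE 0.177 over clones), against a median of 0.297 over 14095 genes. It was at least 1 in 30 of 39 members and in 2.13% of all genes. IFI6 had the largest SD (2.72), followed by IFI27 (2.17) and IFI44L (2.07), and IRF1 the smallest (0.360), below IFITM2 (0.423) and IFITM3 (0.523). The SMAD4-expressing clones varied less in these genes. Their median SD over 25 members was 0.460 (jackknife SE 0.0426), against 0.286 over 13532 genes, and no member reached an SD of 1, which 2.21% of all genes did. IFITM1 came nearest, at 0.938, and IFIT5 was the steadiest, at 0.213. Among 24 members expressed in both sets, 22 had the larger SD in the SMAD4-low clones, as did 51.8% of 12381 genes. IFITM2 and IRF1 were the exceptions.

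**Figure D3:**
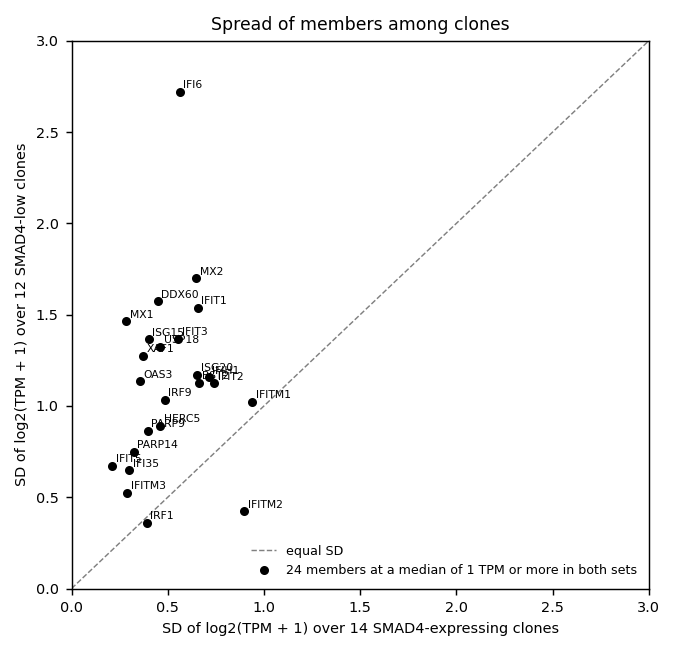
Each point is 1 of 24 members with a median of 1 TPM or more in both sets. The SD of log2(TPM + 1) over 12 SMAD4-low clones (vertical axis) is set against that over 14 SMAD4-expressing clones (horizontal axis), and 22 points lie above the dashed line of equal SD, with IFI6 farthest from it.

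The clones of the SMAD4-low set could be placed in an order that most members followed closely. The median z-score over members, taken within the set, was highest in library 16 (labelled BxPC3, 1.14) and library 1 (labelled Panc-1, 1.05), and lowest in library 3 (-1.52) and library 6 (-1.67), both labelled Panc-1. Library 16 held the highest value of the set for 20 members and library 1 for 9. Library 6 held the lowest value for 25 members and library 3 for 13. IFI27 followed this order closely but not exactly (rho 0.944 with the median level of the other members), with 3875 TPM in library 1, 3353 in library 16, 2528 in library 26, 2495 in library 21 and 2391 in library 4. The next clones down were library 24 with 1388 TPM, library 2 with 975, library 25 with 927 and library 7 with 835 TPM. Library 5 had 216 TPM, and libraries 3 and 6 had 53.4 and 52.8 TPM. The high and the low clones of the set both included the label Panc-1. In the SMAD4-expressing clones the same median ran only from -0.564 (library 10) to 0.652 (library 20), and no library held the highest value for more than 5 of 25 members.

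Pairs of members followed each other closely in the SMAD4-low clones. Over 741 pairs of 39 members the median Spearman correlation among the 12 clones was 0.867 (jackknife SE 0.0738), and 666 pairs (89.9%) reached 0.5. Pairs of all genes expressed in these clones had a median of 0.105, and 14.5% of them reached 0.5. With the mean of each label taken off, the median over members was 0.839. It was 0.770 without libraries 3 and 6 and 0.891 without libraries 1 and 16. Among the 14 SMAD4-expressing clones the median over 300 pairs of 25 members was 0.0549 (jackknife SE 0.0584), with 22 pairs (7.33%) at 0.5 or more, against 0.0287 and 6.37% for all pairs of genes. A pair of genes measured in the same libraries shares depth and composition, and the pairs of a gene are not independent of each other, so no p is given.

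**Figure D4:**
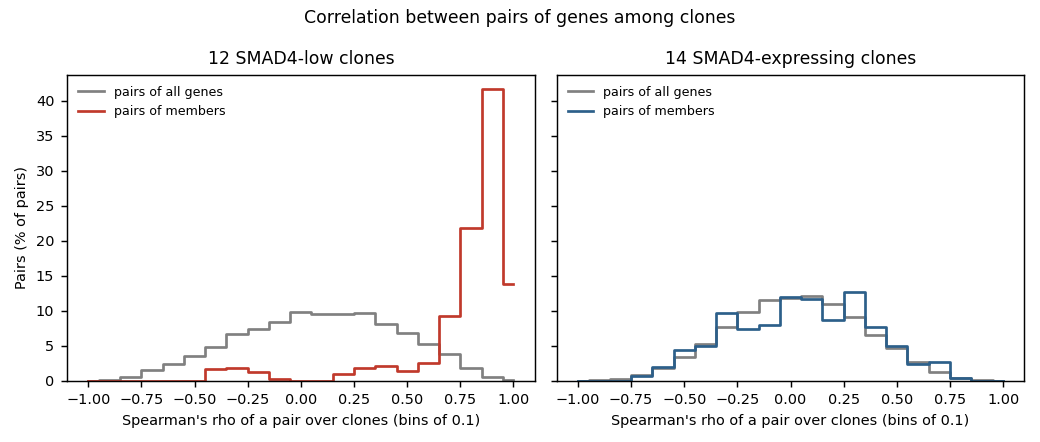
The horizontal axis gives Spearman's rho of a pair of genes over clones in bins of 0.1 and the vertical axis the percentage of pairs. For 12 SMAD4-low clones (left) the pairs of members (red) gather near 0.9, far from the pairs of all genes (grey), whereas for 14 SMAD4-expressing clones (right) the members (blue) lie over all genes.

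Single members were also set against the median level of the other members. In the SMAD4-low clones this rho was at least 0.8 in 34 of 39 members and in 2.11% of 14095 genes, with CMPK2 (0.993), PARP9 and USP18 (both 0.986) at the top. USP18 and CMPK2 therefore ranked the clones almost as the whole group did, although neither was abundant. The members that went their own way were IFITM2 (-0.364), the single negative value, and IRF1 (0.322). IFITM3 (0.685), OASL (0.762) and GBP2 (0.776) lay between. IRF7, which is not among the 39 because its median was under 1 TPM, had a rho of -0.504 on at most 9.52 estimated counts. In the SMAD4-expressing clones the highest values were those of PARP14 (0.635) and PARP9 (0.596), and none of 25 members reached 0.8, which 0.0222% of 13532 genes did. There 8 of the 25 were negative, with IRF7 lowest (-0.591).

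Pairs joined by function or position were tested one by one, with 100000 two-sided permutations of the clones and Benjamini-Hochberg adjustment over 24 pairs computed in the 2 sets. In the SMAD4-low clones 11 of 12 pairs passed an adjusted p of 0.05, with permutation adjusted p-values of 0.00012 to 0.0262 for rho and 4.8e-05 to 0.00314 for r. Without the 2 clones farthest from the median of the first gene, 10 passed by rho. Since 89.9% of all 741 pairs of members reached a rho of 0.5 in these clones, these counts are no result about shared function or position. OAS1 and OAS3 ranked the 12 clones identically (rho 1.00, Pearson r 0.982, unadjusted p of 1e-05 by permutation, the smallest that 100000 permutations can give), and PARP9 and PARP14 had a rho of 0.979 (r 0.982). IFIT1 and IFIT3 had a rho of 0.930 (r 0.985), ISG15 and IFI6 a rho of 0.930 (r 0.946), and MX1 and MX2 a rho of 0.895 (r 0.821). IRF9 and ISG15 had a rho of 0.692 (r 0.760, adjusted p = 0.0262 by permutation), which was 0.479 (adjusted p = 0.267 by permutation) without libraries 3 and 6, the clones farthest from the median of IRF9. IRF1 and GBP1, both known targets of type II interferon, did not pass (rho 0.420, adjusted p = 0.235 by permutation).
In the SMAD4-expressing clones 3 of 12 pairs passed, with permutation adjusted p-values of 0.000206 to 0.0262 for rho and 0.00027 to 0.00658 for r. These were PARP9 with DTX3L, its binding partner that shares a bidirectional promoter with it (rho 0.881, r 0.870), IFIT2 with IFIT3 (rho 0.842, r 0.809), and PARP9 with PARP14 (rho 0.644, r 0.719). The rho of the last was 0.441 (adjusted p = 0.265 by permutation) without libraries 10 and 13. In the SMAD4-expressing clones 7.33% of all 300 pairs of members and 6.37% of all pairs of genes reached a rho of 0.5. The tested pairs were chosen with earlier results of these data known, so their count is no result about shared function or position. ISG15 and IFI6 had a rho of 0.222 and MX1 and MX2 of 0.0945. USP18 and ISG15 ran in opposite directions by Pearson's r (-0.631, adjusted p = 0.0177 by permutation) but did not pass by rank (rho -0.459, adjusted p = 0.148 by permutation), and r was -0.247 without libraries 15 and 23. Differences between the correlations of the 2 sets were not tested.

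**Figure D5:**
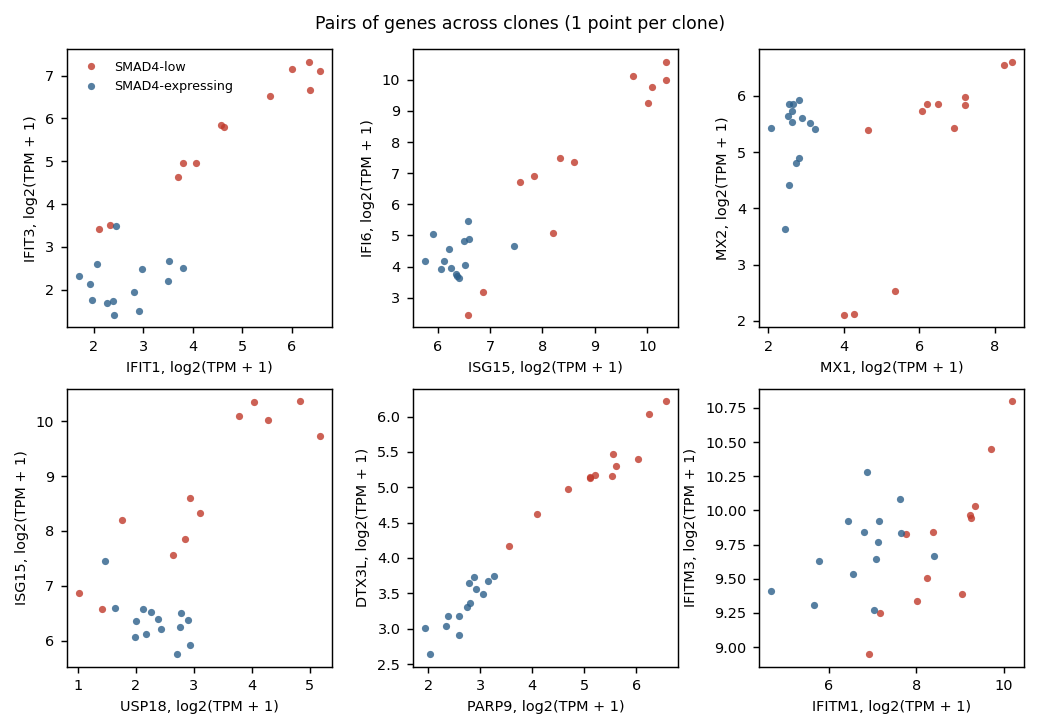
Both axes of each panel give log2(TPM + 1) of a gene, and each point is 1 clone, red for SMAD4-low and blue for SMAD4-expressing. IFIT1 with IFIT3 (rho 0.930 and 0.262 in the 2 sets) and ISG15 with IFI6 (0.930 and 0.222) form a line in red and a cloud in blue, whereas PARP9 with DTX3L (0.965 and 0.881) forms a line in both.

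The genes upstream of the ISGs were followed in fixed lists. None of 9 interferon genes reached a median of 1 TPM in either set. IFNL1, a type III interferon, was at 0.0728, 0.864 and 2.81 TPM in the SMAD4-low clones, with at most 41.4 estimated counts, and at most 0.555 TPM in the SMAD4-expressing clones. IFNB1, the type I interferon of most tissues, was at most 0.493 TPM (4.91 estimated counts) in the SMAD4-low clones and listed at 0 in every SMAD4-expressing clone. Both ranked with the level of the members in the SMAD4-low clones (rho 0.825 for IFNL1 and 0.798 for IFNB1, n = 12), on counts near the limit of detection.
Of 11 receptor and signal genes, all were expressed in both sets and 1, IFNGR1, was higher in the SMAD4-low clones without overlap (86.7 to 266 TPM against 21.5 to 45.4 TPM), where 15.2% of all genes did the same, so the count is no result about the list. The type I receptor chains differed little, with IFNAR1 medians of 58.4 and 53.9 TPM and IFNAR2 medians of 19.4 and 15.99 TPM. STAT2 had a rho with the level of the members of 0.846 in the SMAD4-low clones and -0.376 in the SMAD4-expressing clones. IFNGR1 also ranked with the members in the SMAD4-low clones (rho 0.790), and JAK2 (0.504) and JAK1 (0.469) did so less closely. The receptor chains IFNAR1 (-0.266), IFNAR2 (0.0420), IFNGR2 (-0.126), IFNLR1 (0.112) and IL10RB (-0.266) and the kinase TYK2 (0) did not.

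Of 12 sensors of nucleic acids and their adaptors, 5 were higher in the SMAD4-low clones without overlap, as were 15.2% of all genes. TLR3, the endosomal receptor for double-stranded RNA, was at 7.75, 13.2 and 21.7 TPM against at most 0.290 TPM. STING1, the adaptor of cytosolic DNA sensing, was at 33.8, 50.2 and 64.1 TPM against 3.01, 7.40 and 15.3 TPM. IRF3, IKBKE and DHX58 were the others, with medians of 173 and 82.5 TPM, 14.5 and 2.75 TPM, and 23.04 and 3.44 TPM. CGAS, which makes the second messenger that STING1 binds, had medians of 18.1 and 32.0 TPM, the higher in the SMAD4-expressing clones. RIGI, the RNA sensor RIG-I, overlapped (5.46 to 99.4 TPM against 9.12 to 17.97 TPM) and ranked with the members in the SMAD4-low clones (rho 0.930), as did EIF2AK2, the kinase PKR (0.902). Of the 5 genes separated between the sets, DHX58 (0.825) also ranked with the members among the SMAD4-low clones. STING1 (0.518), TLR3 (0.420), IKBKE (0.371) and IRF3 (-0.196) ranked less closely or in reverse. So did the remaining genes of the list, ADAR (0.441), ZBP1 (0.329), TBK1 (0.322), CGAS (0.273) and MAVS (-0.53).
Among 5 negative regulators, 1, TREX1, a DNase that clears cytosolic DNA, was separated (4.56 to 9.32 TPM against at most 1.07 TPM). Of all genes 15.2% did the same, so the count is no result about the list. SAMHD1, which lowers nucleotide pools, ranked with the members (rho 0.958, medians 58.0 and 17 TPM). SOCS1 and SOCS3, inhibitors of JAK signals, had the lower median in the SMAD4-low clones (2.996 against 3.997 TPM and 17.6 against 26.7 TPM), although within that set they ranked with the members (rho 0.692 and 0.825). TREX1 (rho -0.441) and PTPN2 (-0.434) ranked in reverse there.

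The chromosome around MX1 and MX2 differed between the sets in other genes as well. Of 7 listed neighbours, 5 (TMPRSS2, RIPK4, C2CD2, ZBTB21 and PRDM15, on the far side of MX1) were at or below 0.0676 TPM in every SMAD4-low clone. These 5 were higher in the SMAD4-expressing clones without overlap, as were 15.8% of all genes. In the SMAD4-expressing clones RIPK4 was at 31.9 to 66.8 TPM and C2CD2 at 8.53 to 18.6 TPM. MX1, MX2 and BACE2 (15.6 to 69.3 TPM) on the near side were expressed in all SMAD4-low clones, and FAM3B was at most 0.494 TPM in both sets. No measurement of DNA copies was made here.

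Values that moved with the level of the members in the SMAD4-low clones were recorded beside it. MKI67, a marker of proliferating cells, had a rho of -0.685 with that level (19.5 to 65.7 TPM), and the other 5 proliferation markers lay between -0.525 and 0.126. Of the 4 mesenchymal markers, FN1, fibronectin, had a rho of 0.867, and ZEB1 (0.441), VIM (0.294) and CDH2 (-0.238) ranked less closely or in reverse. The epithelial keratins KRT8 (-0.608), KRT19 (-0.580) and KRT18 (-0.427) had negative values, and CDH1 (0.280) and EPCAM (0.448) positive ones. Library totals had a rho of -0.406. Of the 6 immune markers, CD14 (0 to 29.1 TPM, rho 0.504) and CD68 (5.28 to 26.9 TPM, rho 0.643) reached a median of 1 TPM, the sum ran from 5.75 to 50.6 TPM in the SMAD4-low and from 44.7 to 141 TPM in the SMAD4-expressing clones, and CD3E and LYZ stayed at or below 0.393 TPM. The part of these in the result was not tested.

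The only contrast that the labels give, Panc-1 against BxPC3, passed the test in no member. Each label holds clones of both SMAD4 sets, so the labels may not identify the lines, and the tests compare labels rather than BxPC3 with Panc-1. In edgeR's quasi-likelihood test over all 26 libraries, 0 of 40 members and 0% of 16008 genes passed an adjusted p of 0.05 with an absolute log2 fold change over 1. At an unadjusted p under 0.05 the numbers were 0 members and 2.29% of genes. With the SMAD4 set as a covariate 0 of 40 members and 0% of genes passed, and 2 members had an unadjusted p under 0.05, as had 7.51% of genes. Within the SMAD4-low clones, 7 labelled Panc-1 and 5 labelled BxPC3, 0 of 39 members passed and 4 had an unadjusted p under 0.05, against 11.4% of 16124 genes. These 4 were DDX60 (log2 fold change -1.84, SE 0.687), IFIH1 (-1.36, SE 0.509), HERC5 (-0.98, SE 0.426) and IRF9 (-0.91, SE 0.412), all lower in the libraries labelled Panc-1, with edgeR adjusted p-values of 0.409 to 0.429. In this fit the median over members was -0.82, against 0.0064 over all genes, and 1 of 39 members had the higher estimate in the libraries labelled Panc-1. With any 1 library of the set left out, this median lay between -1.30 and -0.55. In those fits 1 or 2 of 39 members had the higher estimate in the libraries labelled Panc-1. The number of members at an unadjusted p under 0.05 rested on single libraries, although no member passed in any of these fits. Without library 1, 25 of 39 members had an unadjusted p under 0.05, as had 13.4% of genes, and the median was -1.30. Without library 4 the number was 11 and without library 25 it was 10, and with any other library of the set left out it was 1 to 5. Without libraries 3 and 6 it was 3, and the median was -0.43. Within the SMAD4-expressing clones 0 of 29 members passed and 0 had an unadjusted p under 0.05, against 4.62% of 15161 genes. DESeq2 and limma called no member in any of the 4 fits. A test of whether the label effect differed between the sets called 0 of 40 members with edgeR, and 4 members had an unadjusted p under 0.05, as had 7.77% of 17456 genes. The methods describe RNA collection once the flask of a clone had reached a set confluency, and the paper reports that clones differed in time to confluency. Which clones were extracted or sequenced together is not stated, so these p-values measure the spread between clones as sequenced.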

How the data were processed

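Polyadenylated RNA of 26 SCDCLs was sequenced from both ends with strand kept. The authors quantified the reads with kallisto 0.46.1 against Ensembl GRCh38 release 103 and summarized them per gene with tximport. The deposited table gives TPM, normalized by the authors to transcript length and library, and estimated counts scaled from TPM to the library total, with 30 resampled estimates per library, of which 10 were used. Estimated counts divide reads among similar transcripts, so related genes share an assignment error, and counting error limits genes with few counts. The sets are defined by SMAD4 under 1 TPM or not. Of 41078 identifiers, 36315 matched a symbol in GENCODE 44, and all 40 members matched.

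Levels were TPM. Spread was the SD of log2(TPM + 1), and correlations were Spearman's rho, for genes with a median of at least 1 TPM in the set. SEs came from the jackknife over clones. Labels were compared with edgeR 4.0.16 (TMM, filterByExpr, quasi-likelihood test, Benjamini-Hochberg over all genes tested) on rounded estimated counts, with R 4.3.3. Alternatives were DESeq2 1.42.0, limma 3.58.1, library totals, size factors, CPM, other filters, a pseudocount of 0.1, and each library left out. Other steps used Python 3.11.15, numpy 2.4.6, pandas 2.3.3 and scipy 1.17.1. The label test and the code for pairs, overlaps and permutations were tested on simulated data. The counts simulated for the label test held no difference between the SMAD4 sets, unlike the real ones.

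The members, the lists of other genes and the pairs were chosen with earlier results of these data known. All 40 members are accounted for, and other genes are named only from fixed lists. Settings without libraries 3 and 6, or 1 and 16, were added after the data had been seen. Promoters are RefSeq, GRCh38.p14. Comparisons of gemcitabine response and proteins were not analysed here, and 1 gene of the fixed lists is not reported here.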

Additional observations from a re-analysis of the deposited data

How the results depend on the processing

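The label contrast called 0 members under every alternative, edgeR, DESeq2 and limma included, but the number at an unadjusted p under 0.05 moved. Within the SMAD4-low clones it was 4 in edgeR, 11 in limma, 6 in DESeq2 and 1 to 25 with any 1 library left out, highest without library 1. With the SMAD4 set as a covariate it was 2, and 0 to 10 with any 1 library left out, again highest without library 1. With any 1 library left out there were 16 to 18 members higher in the SMAD4-low clones without overlap, a median rho in the SMAD4-low clones of 0.827 to 0.891, and a median rho in the SMAD4-expressing clones of 0.0165 to 0.0852. Without libraries 3 and 6, 28 members were higher in the SMAD4-low clones without overlap, the median SD there was 0.864 with 13 members at 1 or more, and the median rho was 0.770. These clones hold the lowest levels, so leaving them out narrows the range by construction. With a pseudocount of 0.1 the median SD was 1.38 in the SMAD4-low and 0.574 in the SMAD4-expressing clones, and 1 member reached an SD of 1 in the latter. For the SMAD4-expressing clones the median SD was 0.513 on CPM with TMM factors, 0.395 at a median of at least 5 TPM and 0.380 without a filter, where different numbers of members enter. At 5 TPM no member (0) was higher in the SMAD4-expressing clones without overlap, since IRF7 falls below that limit. By Pearson's r, with a pseudocount of 1 or 0.1, 5 pairs passed in the SMAD4-expressing clones in place of 3, and the cause was not tested. No paired analysis was possible because the groups share no replicate numbers in the labels. Genes under about 1 TPM rest on few counts, so their spread in the SMAD4-expressing clones could not be measured well.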
